A study of Mus musculus with 3 samples.

Results

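The collagens are the structural proteins of the extracellular matrix, and each is a trimer of chains wound into a triple helix. This account covers the mouse genes whose symbol is Col, a number, a and a number, 44 of the 21631 protein-coding genes on the 20 chromosomes that held peaks. They were examined for binding of FOG2, the zinc finger cofactor of GATA factors encoded by Zfpm2, in the ventricles of E12.5 mouse hearts, where E counts days of gestation. The 2 pulldown libraries each came from about 20 pooled ventricles, per the labels' protocols. The embryos were homozygous for a tagged Fog2 allele (flbio) and for a Rosa26 allele of the biotin ligase BirA. By the same protocols the tagged protein was recovered on streptavidin, and 1 input library from the same kind of tissue was the control. The labels' genotype field reads WT and their antibody field FOG2. These fields do not match a biotin pulldown from tagged embryos, and the protocol is followed here. The deposited peaks are named for FLAG, which does not by itself tell how the protein was recovered. No pulldown from embryos without the tagged allele was analysed here, and the alleles are in all embryos, so background of the pulldown, including other biotin-labelled proteins if streptavidin was used, cannot be told apart from binding of FOG2.

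Fibrillar collagens (types I, II, III, V, XI, XXIV and XXVII) assemble into the fibrils of connective tissue and, in the developing heart, are laid down mainly by mesenchymal cells of the valves and cells derived from the epicardium. Type IV chains form the sheet-like network of basement membranes under endothelium and around muscle cells, where the multiplexins encoded by Col15a1 and Col18a1 are also found. Genes of type IV chains stand in pairs with their starts back to back. Genes for fibrillar and basement membrane chains were therefore contrasted, with 11 and 8 members respectively. The other members were 9 FACIT collagens, which coat fibrils, 6 type VI chains of beaded filaments, 3 short-chain network collagens, 4 transmembrane collagens and 3 others.

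The authors pooled both pulldown libraries and deposited 6166 peaks on the mm10 build, each with a summit and a fold of pulldown over control. A summit was assigned to the nearest protein-coding gene body within 100 kb. The list holds no value per library, so no spread between replicates and no test between libraries could be had, and every comparison here is a description. A median summit of the whole list had a fold of 6.39 and rested on 12 pulldown fragments, a number recovered from the fold and the p-value. The interval after each number of fragments is its exact 95% Poisson interval, which covers counting error alone. Ventricular muscle genes carried summits (Ryr2, Actn2, Myh7, Tnnt2 and Myh6, 5 of 6 cardiomyocyte markers), against 13.6% of all protein-coding genes. Mesenchyme markers had summits at 5 of 6 genes, epicardial ones at 3 of 4 and endothelial ones at 2 of 5. These came to 6, 7 and 3 summits, where the genome nearest to the markers would hold 2.01, 1.42 and 2.24 at the density of all genes. Some lay far from the marker, as at Postn (83.3 kb), Sox9 (53.1 kb) and Aldh1a2 (82.4 kb). The 0 of 4 hepatocyte markers says little, since the genome nearest to them would hold only 0.378 summits at the density of all genes. Binding does not measure how many cells of each type were present, and expression was not measured.

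None of the 38 annotated start windows of 35 collagen genes was overlapped by a peak. Such overlap was rare in the list as a whole, at 89 of 21045 windows of protein-coding genes (0.423%). Each window runs from 250 bases before to 50 bases after a start, on GRCm38.p6 from RefSeq. Col1a1, Col2a1, Col4a3, Col5a2, Col9a3, Col12a1, Col14a1, Col22a1 and Col26a1 had no window. The closest approach was at Col18a1, 6.74 kb from the start, then at Col3a1, 6.95 kb, and at Col6a6, 7.75 kb. The windows of Col18a1 (chr10:77166481-77166780, minus strand) and Col3a1 (chr1:45311288-45311587, plus strand) are shown because they were the basement membrane and fibrillar starts nearest to a summit. Capitals mark the 50 bases from the start on. The Col4a1 window (chr8:11312777-11313076, minus strand) holds the starts of both Col4a1 and Col4a2, the pair with the most summits of the type IV pairs. Here the 22 capitals run from the start of Col4a1 to that of its partner, which is transcribed the other way.
Col18a1: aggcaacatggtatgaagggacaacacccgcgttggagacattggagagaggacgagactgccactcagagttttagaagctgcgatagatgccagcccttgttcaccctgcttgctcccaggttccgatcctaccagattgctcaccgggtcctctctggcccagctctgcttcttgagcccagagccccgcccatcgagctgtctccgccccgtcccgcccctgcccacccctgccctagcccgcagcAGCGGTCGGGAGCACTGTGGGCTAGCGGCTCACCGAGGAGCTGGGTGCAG
Col3a1: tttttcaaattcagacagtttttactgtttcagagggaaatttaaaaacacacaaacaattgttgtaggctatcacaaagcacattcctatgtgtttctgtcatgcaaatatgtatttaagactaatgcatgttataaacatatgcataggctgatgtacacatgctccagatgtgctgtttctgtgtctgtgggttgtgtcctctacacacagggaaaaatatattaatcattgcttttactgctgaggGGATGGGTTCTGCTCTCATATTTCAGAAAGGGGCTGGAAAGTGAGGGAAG
Col4a1: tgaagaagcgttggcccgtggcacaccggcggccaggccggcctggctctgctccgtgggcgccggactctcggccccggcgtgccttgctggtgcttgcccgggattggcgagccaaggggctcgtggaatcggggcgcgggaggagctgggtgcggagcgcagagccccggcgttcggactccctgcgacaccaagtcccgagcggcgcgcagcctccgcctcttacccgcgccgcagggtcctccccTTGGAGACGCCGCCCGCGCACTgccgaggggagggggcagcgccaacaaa

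The windows were searched on both strands for the letters GATAA, a core of GATA factor sites, and AGGTGT, a core of T-box sites. GATAA was found in 7 of 38 collagen windows (18.4%) against 22.5% of all protein-coding windows, and AGGTGT in 3 (7.89%) against 12.8%. Among the 8 fibrillar windows, GATAA was in that of Col11a2 and AGGTGT in those of Col24a1 and Col1a2. Neither was in any of the 8 basement membrane windows. So few windows cannot show a lack, and those of Col4a1 and Col4a2 overlap. The search had been planned only for starts covered by a peak. As none was covered, these letters have no bearing on where FOG2 was bound. GC content was 74.0% at Col4a1 and 37.7% at Col3a1, but these single windows do not stand for their classes. The median was 61.5% over the basement membrane windows and 61.4% over the fibrillar ones. It was 59.9% over the collagen windows and 56.7% over all.

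FOG2 summits were assigned to 19 of the 44 collagen genes, 43.2%, against a background of 13.6% of protein-coding genes. They carried 31 summits, of which 26 lay inside the gene body, 83.9% against 60.2% of all assigned summits. Of the 31, 30 belonged to collagen genes of 100 kb or longer. For those genes the share inside was 86.7%, against 79.2% for all genes of that length. The median fold of the 31 summits was 6.21 (quartiles 5.23 and 10.1) on a median of 12 fragments. Reaching at least 10-fold were 8 of them, 25.8% against 16.9% of all summits. The genes of highest fold were Col12a1, Col23a1, Col27a1, Col4a3, Col13a1 and Col26a1, which belong to 5 different classes.

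**Figure D1:**
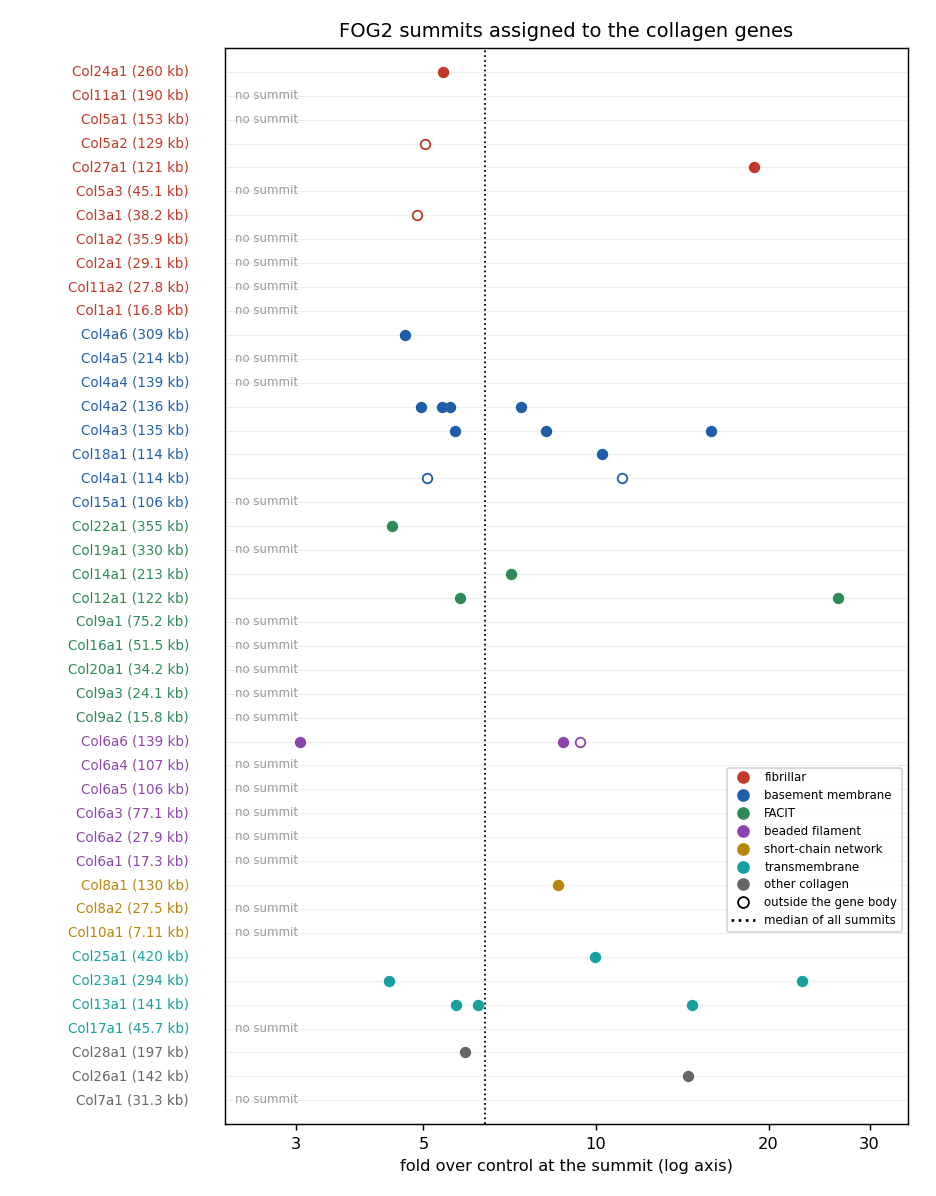
Fold over control (log axis) of every summit assigned to the 44 collagen genes, 1 row per gene with its length, coloured by class and ordered by length within it. Filled points lie inside the gene body, open points outside, and the dotted line is the median of all summits, 6.39. The 11 basement membrane summits sit in 5 rows and the 4 fibrillar summits in 4 rows, and every gene under 100 kb except Col3a1 has none.

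Members with a summit were mostly long genes. Of the 26 collagen genes of 100 kb or longer, 18 had a summit (69.2%), against 50% of all protein-coding genes of that length. Of the 18 shorter ones, only Col3a1 had one (5.56%, against 8.98% of all shorter genes). The split at 100 kb was chosen after the values were seen. In the bin from 100 to 200 kb, 12 of 18 collagen genes had a summit against 38.9% of all genes, and from 200 to 500 kb it was 6 of 8 against 61.9%. A summit is assigned by distance, so a longer gene has more room for one. Summits inside bodies of the longer collagen genes came to 5.40 per Mb (95% Poisson interval 3.53 to 7.91), against 3.17 per Mb (3.03 to 3.32) for all genes of 100 kb or longer. For all genes from 100 kb up to the length of the longest collagen gene it was 3.48 per Mb (3.29 to 3.67), an interval that overlaps that of the collagens. By bin, collagen genes of 100 to 200 kb had 7.85 per Mb (4.72 to 12.3) against 3.12 (2.88 to 3.38), and those of 200 to 500 kb had 2.92 (1.18 to 6.02) against 3.70 (3.46 to 3.96). The 0 summits inside the 0.627 Mb of shorter collagen genes allow a density of up to 5.88 per Mb at the same confidence, which holds the 2.13 per Mb of all shorter genes.

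**Figure D2:**
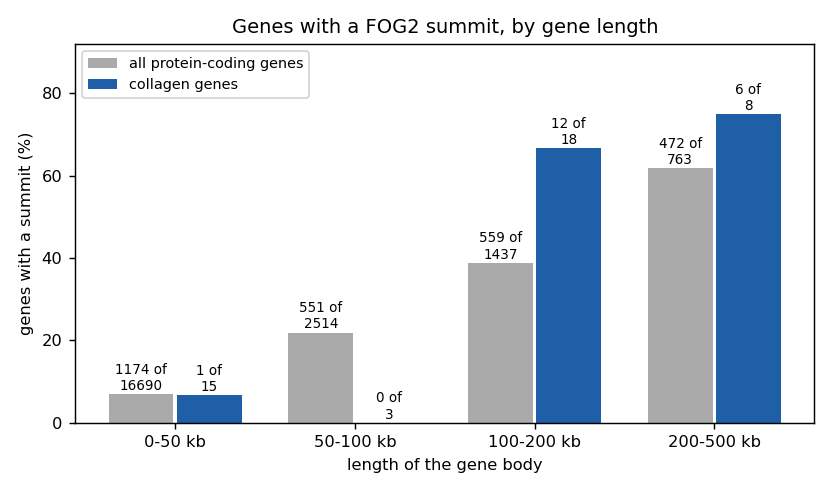
Share of genes with a FOG2 summit (%) in 4 bins of gene body length, for all protein-coding genes (grey) and the collagen genes (blue), with counts above the bars. Between 100 and 200 kb the bars stand at 38.9% and 66.7%, and below 50 kb at 7.03% and 6.67%.

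The basement membrane genes carried 11 summits at 5 of 8 genes (62.5%), and the fibrillar genes 4 summits at 4 of 11 (36.4%). Both shares lie above the 13.6% of all genes. All 8 basement membrane genes are 106 kb or longer, while only 5 of the 11 fibrillar genes reach 100 kb. Among genes of that length the counts were 5 of 8 and 3 of 5, against 50% of all genes that long. The contrast in the share of genes therefore cannot be told apart from the difference in gene length.

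The number of summits per gene differed more than the share of genes. The territory of a gene, that is all positions within 100 kb for which it is the closest gene body, would hold 3.75 summits for the basement membrane genes at the density of all genes, and 4.74 for the fibrillar genes. The 11 basement membrane summits were 2.93 times that number (95% Poisson interval 1.46 to 5.25). The 4 fibrillar summits were 0.843 times (0.230 to 2.16), and for the 5 long fibrillar genes alone the ratio was 0.880 (0.181 to 2.57). Inside gene bodies the densities were 7.10 per Mb (3.25 to 13.5) and 1.91 per Mb (0.232 to 6.91), against 2.75 per Mb over all gene bodies. For all genes from 100 kb up to the length of the longest collagen gene the density was 3.48 per Mb, a value inside both intervals. The ratio to territory of those genes was 1.30 (1.24 to 1.37). Transmembrane collagen genes had 6.66 per Mb (2.45 to 14.5), so a high density was not particular to the basement membrane class. The intervals of the classes overlapped in both measures, and they take each summit as independent, which clustered summits are not. Of the 11 basement membrane summits 5 had another within 10 kb (45.5%, against 18.6% of all summits), and none of the fibrillar ones did. With summits of 1 gene within 10 kb counted once, 8 remained. Without Col4a1 and Col4a2 the basement membrane genes had 5 summits, 1.74 times the number for their territory (0.565 to 4.06).

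**Figure D3:**
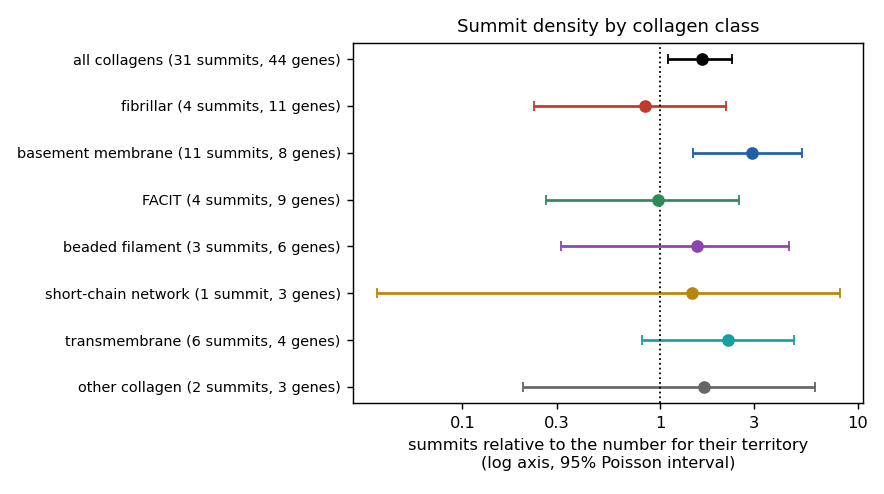
Summits of each collagen class divided by the number their territory would hold at the density of all protein-coding genes (log axis, bars are 95% Poisson intervals). Basement membrane genes stand at 2.93 and fibrillar genes at 0.843, and the 2 intervals share the range from 1.46 to 2.16.

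Col4a1 and Col4a2 encode the ubiquitous chains of the type IV network, and their locus had 6 of the 10 type IV summits. The gene bodies overlap by 85 bases and their starts are 21 bases apart. Their joint territory would hold 0.875 summits. Within Col4a2 lay 4 summits of modest fold, 14.8, 22.0, 80.5 and 93.8 kb from its start. The first was 5.38-fold on 9 fragments (4.12 to 17.1) at chr8:11327577-11327746. The second was 4.95-fold on 16 fragments (9.15 to 26.0) at chr8:11334553-11334809, where the control level was also high, at 2.43. These 2 summits lay 7175 bases apart, and both fell below the 6.39-fold median. The next was 5.55-fold on 8 fragments (3.45 to 15.8) at chr8:11393251-11393427. The last was 7.40-fold on 11 fragments (5.49 to 19.7) at chr8:11406463-11406687. Their counting intervals all overlapped, so no order of strength was detectable at this depth.

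No summit lay inside Col4a1. Its 2 summits were beyond its far end, 14.7 and 38.6 kb downstream. The farther one was the strongest of the locus, 11.1-fold on 17 fragments (9.90 to 27.2) at chr8:11159443-11159927, and the nearer one was 5.08-fold on 13 fragments (6.92 to 22.2) at chr8:11183673-11183848. After Col4a1, the protein-coding gene nearest to the farther summit was Irs2, 151 kb from it. With genes of every biotype as candidates, both summits went to another gene and Col4a1 had none.

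Col4a3 and Col4a4 encode chains of specialised basement membranes, such as that of the kidney glomerulus. All 3 summits of this pair lay inside Col4a3, at spacings of 8035 and 8609 bases. The strongest was 15.9-fold on 28 fragments (18.6 to 40.5) at chr1:82631399-82631661, 44.5 kb from the near end of Col4a4, and was the strongest of all basement membrane summits. The others were 8.18-fold on 12 fragments (6.20 to 21.0) at chr1:82639377-82639658 and 5.67-fold on 8 fragments (3.45 to 15.8) at chr1:82648087-82648261. Fold fell with distance from Col4a4, and of the 3 pairs of intervals only that of the nearest and the farthest summit did not overlap. By distance to the nearest gene end in place of the gene body, all 3 summits went to Col4a4 and Col4a3 had none. The 2 gene bodies overlap by 114 bases, and this choice between them rested on that small difference.

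Col4a5 and Col4a6 lie on the X chromosome, 1.27 kb apart, and encode the remaining type IV chains. Col4a6 had 1 summit, 4.64-fold on 7 fragments (2.81 to 14.4) at chrX:141304612-141304824, which was the weakest of the basement membrane summits. Col4a5 had none, and the summit of Col4a6 was the nearest to it, 171 kb away. Only 6.21% of protein-coding genes on the X chromosome had a summit, so the pair stands on a chromosome with few. Among X genes of 100 kb or longer, as both of these are, the share was 23.7%, against 50% of all genes that long.

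**Figure D4:**
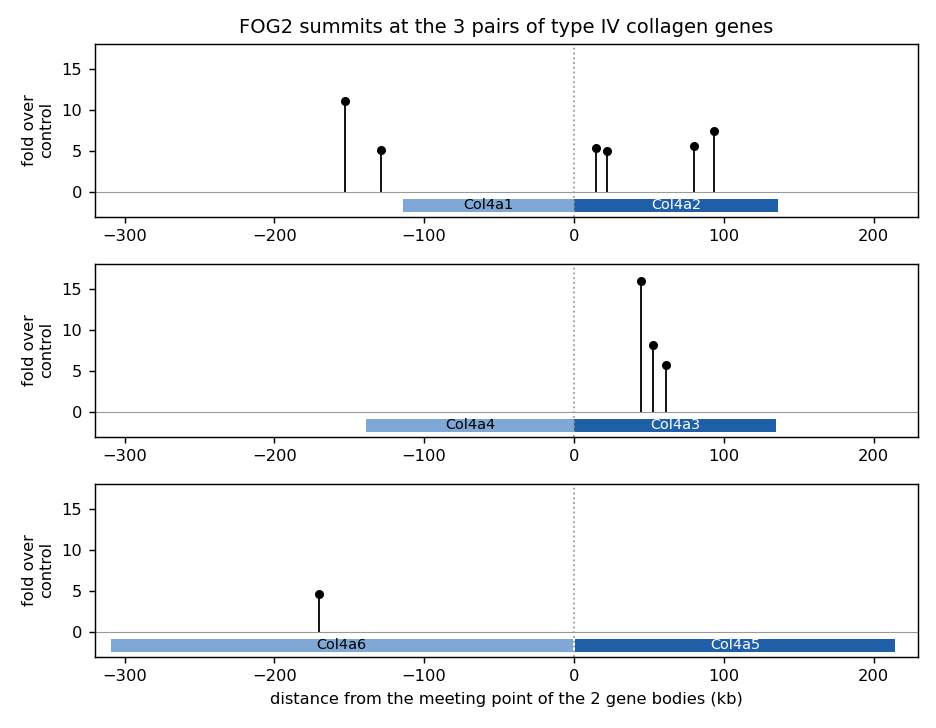
Fold over control of each summit (vertical axis) at the 3 pairs of type IV genes, against distance in kb from the point where the 2 gene bodies meet (dotted line). Bars show the gene bodies. The Col4a1 and Col4a2 locus has 6 summits spread over both sides, Col4a3 has 3 in a cluster, and the X-linked pair has 1 at 4.64-fold.

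Of the multiplexins, which carry the precursors of angiogenesis inhibitors at their ends, Col18a1 had a summit and Col15a1 had none. The Col18a1 summit was 10.3-fold on 22 fragments (13.8 to 33.3) at chr10:77159684-77159928, inside the gene. It lay 5.89% of the way along the gene body from its start. For Col15a1 the closest summit, of 7.54-fold, lay at 89.3 kb and belonged to Tgfbr1, a receptor for TGF-beta.

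Among fibrillar genes, Col27a1 had the only strong summit. Its protein is a fibrillar collagen best known from cartilage. The summit was 18.9-fold on 29 fragments (19.4 to 41.6) and the peak, at chr4:63332051-63333031, was 981 bases wide, against a median width of 250 bases over the collagen summits. It lay 97.9% of the way along the gene, 117 kb from the start and 12.1 kb from Orm1. Its interval overlapped that of the strongest Col4a3 summit, so the top summits of both classes were not separated at this depth. Col24a1, the other fibrillar gene with a summit inside, had 5.41-fold on 11 fragments (5.49 to 19.7) at chr3:145462365-145462639.

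The type I, III and V genes, which encode the main fibril chains of heart stroma, had no summit inside any gene body. Col3a1 had 1 summit 6.95 kb upstream of its start, 4.87-fold on 7 fragments (2.81 to 14.4) at chr1:45304452-45304621. Col5a2, which follows Col3a1 on chromosome 1, had 1 summit at 82.8 kb from the gene, 5.04-fold on 7 fragments (2.81 to 14.4) at chr1:45585942-45586131. By fold they ranked at percentiles 11.1 and 19.1 of all summits. With genes of every biotype as candidates, the Col5a2 summit went to another gene and Col5a2 had none. Col1a1, Col1a2, Col5a1 and Col5a3 had none. The summit nearest to Col1a1 was 120 kb away and nearest to Itga3, and that nearest to Col5a1 was 76.5 kb away and assigned to Rxra. Around Col1a2 and Col5a3 the closest summits were 1060 and 1190 kb away. With Col6a1, Col6a2 and Col6a3 added but Col5a3 left out, a stromal group put together after the values were seen, 2 of 8 genes had a summit against 13.6% of all genes. Their 2 summits were 0.664 times the 3.01 that their territory would hold (0.0804 to 2.40). The 0 summits inside their 0.495 Mb of gene bodies allow up to 7.45 per Mb, which holds the 2.75 per Mb of all gene bodies, so a lack of binding was not detectable at this depth.

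Most collagens of cartilage had no summit, like most protein-coding genes, of which 13.6% had one. Col27a1 was the exception. Col2a1, Col9a1, Col9a2, Col9a3, Col10a1, Col11a1 and Col11a2, grouped without Col27a1 after the values were seen, had 0 summits against 1.64 that their territory would hold, a difference not detectable at this depth. Of these 7 genes, 6 were under 100 kb, a length at which 8.98% of all genes had a summit. The territory of Col10a1 measured 0 kb, so it added nothing to the 1.64. The nearest summit to Col11a2 was 38.4 kb away at 14.5-fold and assigned to H2-K1. Col11a1, at 190 kb, was the longest fibrillar gene without a summit, with the nearest 157 kb away at 10.4-fold. The cartilage proteoglycan gene Acan was the only chondrocyte marker of 5 with a summit, at 39.8-fold and 47.3 kb from the gene body, on 63 fragments (48.4 to 80.6).

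**Figure D5:**
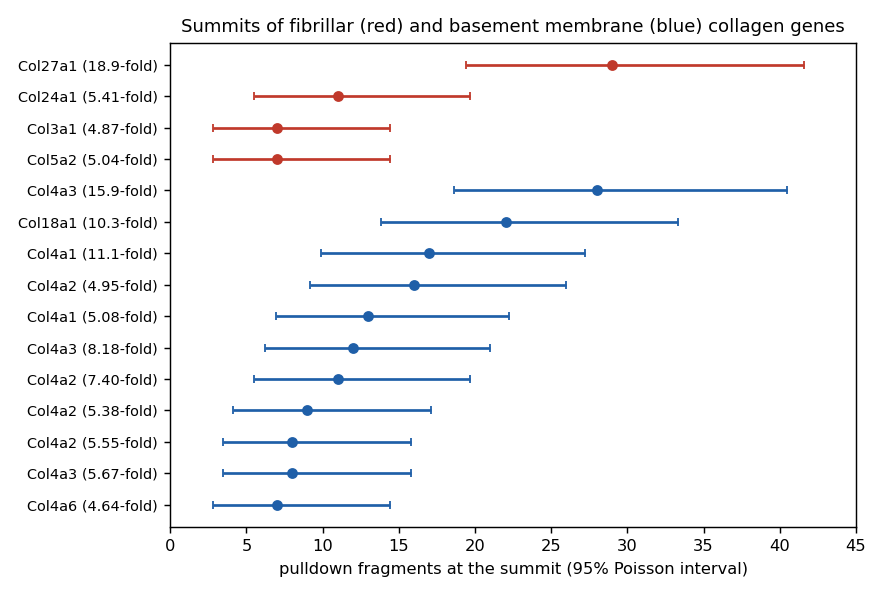
Pulldown fragments at each of the 4 fibrillar (red) and 11 basement membrane (blue) summits, with exact 95% Poisson intervals and the fold in parentheses. Col27a1 (29 fragments) and the strongest Col4a3 summit (28) lead their classes with overlapping intervals, and most others rest on fewer than 18.

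The strongest collagen summit of all was in Col12a1, a FACIT collagen that bridges fibrils under load. It was 26.4-fold on 41 fragments (29.4 to 55.6) at chr9:79637893-79638227, above 98.7% of all summits, and a second summit 35339 bases away in the gene was 5.80-fold on 9 fragments (4.12 to 17.1). The intervals of the 2 did not overlap. Col14a1, a related FACIT gene, had 7.11-fold on 12 fragments (6.20 to 21.0), and Col22a1, found at tissue junctions, had 4.41-fold on 6 fragments (2.20 to 13.1). Col9a1, Col9a2, Col9a3, Col16a1, Col19a1 and Col20a1 had none. Col19a1 was the longest collagen gene without a summit, at 330 kb, and the nearest one lay 101 kb away.

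Transmembrane collagens had summits at 3 of 4 genes, 6 in all and each inside the gene. Those 3 genes were 100 kb or longer, a length at which 50% of all genes had a summit. The 6 summits were 2.20 times the number for the territory of the class (0.807 to 4.78). Col23a1 had a summit of 22.8-fold on 36 fragments (25.2 to 49.8) at chr11:51532438-51533007, with a weaker one of 4.35-fold on 6 fragments 283 bases away. Col13a1, which acts at the neuromuscular junction and in cell adhesion, had 3 summits. The one nearest its start, 10.5 kb inside, was 14.7-fold on 23 fragments (14.6 to 34.5) at chr10:61968322-61968810, and those farther along were 6.21- and 5.70-fold on 11 and 10 fragments. Col25a1, the longest collagen gene at 420 kb, had 9.95-fold on 15 fragments (8.40 to 24.7). Col17a1, of the hemidesmosome, had none.

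In the beaded filament class only Col6a6 had summits. Of its 3, the strongest was 7.59 kb outside the gene on the upstream side, at 9.38-fold on 14 fragments (7.65 to 23.5) at chr9:105835709-105835958. It was also the nearest summit to Col6a5, 20.2 kb away. One inside the gene was 8.76-fold on 15 fragments (8.40 to 24.7), and the other, at 3.04-fold, also rested on 15 fragments over a control level of 4.26, against 0.828 at the former. Col6a1, Col6a2, Col6a3, Col6a4 and Col6a5 had none. Of the short-chain collagens of vessel and cartilage matrix, Col8a1 had 8.57-fold on 18 fragments (10.7 to 28.4), inside the gene, and Col8a2 and Col10a1 had none. The summit nearest to Col8a2 was 7.43 kb away and assigned to Adprhl2. Col26a1 had 14.5-fold on 22 fragments (13.8 to 33.3) at chr5:136823948-136824478, Col28a1 had 5.90-fold on 11 fragments (5.49 to 19.7), and Col7a1, of anchoring fibrils, had none.

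Genes that act with collagens were taken as 5 lists of 68 genes in all, of which 26 had a summit (38.2%, against 13.6% of all genes). Partners of type IV collagen in the basement membrane had 10 of 15 genes with a summit and 17 summits, where their territory would hold 6.21. The laminin chain gene Lama4 led with 26.7-fold on 56 fragments (42.3 to 72.7), 3.31 kb outside the gene. The nidogen gene Nid2, which links laminin to type IV collagen, had 12.4-fold on 34 fragments (23.5 to 47.5). Lamc1 had 5 summits, the strongest 11.8-fold on 29 fragments (19.4 to 41.6), and Lamb1 had 2 with 11.0-fold on 30 fragments (20.2 to 42.8). Lama1, Lama3, Lama5, Lamc3 and Agrn had none.

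A smaller share of genes had summits in the other 4 lists, from 28.6% to 31.6%, against 13.6% of all genes. Their summits numbered 6 for synthesis, 7 for processing and crosslinking, 4 for receptors and 4 for fibril partners. Their territories would hold 3.52, 4.49, 3.31 and 2.67 in that order. Partners of fibrils had 3 of 10, led by the tenascin gene Tnc (16.2-fold, 35 fragments, 24.4 to 48.7), with Thbs1 at 7.66-fold and Postn at 4.94-fold, while Dcn, Bgn, Lum, Fmod, Ogn, Fn1 and Sparc had none. Collagen receptors also had 3 of 10, namely the integrin genes Itga11 (13.7-fold) and Itga1 (9.34-fold) and the kinase gene Ddr1 (7.79-fold). Of 19 genes for chain synthesis, folding and export, 6 had 1 summit each. They were led by the prolyl hydroxylase gene P4ha2 (8.19-fold), then P3h4 (7.25-fold), P3h2 (6.39-fold) and Crtap (5.67-fold). For processing and crosslinking the count was 4 of 14, with Adamts3 at 9.04-fold, Pxdn, whose product crosslinks type IV collagen, at 8.57-fold, Loxl1 at 8.08-fold and Tll1 at 7.56-fold. Lox and Bmp1 had none. Gene length also varied between the lists. In the basement membrane list 6 of 15 genes were 100 kb or longer, and 4 of those 6 had a summit. Of the other lists, 4 of 14 processing genes, 3 of 10 receptors, 3 of 19 synthesis genes and 0 of 10 fibril partners were that long. The part of length in these counts was not tested.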

How the data were processed

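Chromatin was taken from ventricles fixed in 1% formaldehyde for 10 minutes and sonicated to 300 to 800 bases, per the labels' protocols. The analysed file is 1 list of peaks pooled over both pulldown libraries and without blacklisted regions, as the deposited file's name says. The submitters' processing notes name Bowtie2 2.3.2, SAMtools 1.5, Picard, MACS2 2.1.1 and mm10, with settings not given in the sources used here. As deposited, the fold is the caller's ratio of pulldown to control at the summit. The −log10 p and −log10 q are the deposited values of the same caller, and the deposited display score was not used. Library depth is not in the file.

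Gene bodies, symbols and start windows came from RefSeq tables of GRCm38.p6 (mm10), in which all 44 collagen genes and all listed genes were matched. Summits at equal distance from several genes (22 of 4702 assigned) counted for each. Fragments and control levels were solved from the fold and −log10 p as a Poisson tail with 1 added to both sides, which matched 100% of peaks within 0.001. In 83 peaks, none at a collagen gene, another whole number also matched. Territory was measured on a 1 kb grid. Exact 95% Poisson intervals were used throughout. Assignment and recovery were tested on simulated data. Python 3.11.15, pandas 2.3.3, SciPy 1.17.1 and Matplotlib 3.10.9 were used.

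Replicates were pooled, so no test was made. Collagen classes and gene lists were chosen with earlier results of these data known. All members are named. Every summit of the fibrillar and basement membrane genes is given with its values, as are the 10 other members of highest fold or most summits and the 4 highest by fold of each list of genes acting with collagens; members beyond that rule were described after their values were seen. Sequence under the peaks was not analysed here. The other settings tried were stricter peak thresholds, narrower windows, genes of every biotype, other ways of assigning a peak, and other memberships of the basement membrane class.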

Additional observations from a re-analysis of the deposited data

How the results depend on the processing

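The counts of 19 collagen genes, 5 basement membrane genes and 4 fibrillar genes with a summit were recomputed under each setting, as were the 31, 11 and 4 summits they held. With peaks of a −log10 q of at least 5, collagen genes had 18 summits, basement membrane genes 6 and fibrillar genes 1, at 1 gene. In the 50% of peaks of highest fold these were 15, 5 and 1, again at 1 fibrillar gene, which was Col27a1 in both. The share of all protein-coding genes with a summit also fell under these settings, from 13.6% to 10.0% and 8.01%. Summits inside gene bodies only left 2 at 2 fibrillar genes, with 8.31% of all genes then holding a summit. Counting every gene within 100 kb of a summit gave 49 summits at collagen genes and 10 at 7 fibrillar genes, with 33.3% of all genes then holding one. The other alternatives stayed within 1.5 times the counts above, among them 1 chosen after seeing the data, in which nearby summits of a gene were counted once. In all alternatives run, basement membrane genes held more summits than fibrillar genes. The alternatives reuse the same list of peaks, and their counts are not adjusted for gene length, so they are not independent support. With every gene within 100 kb counted, 7 genes of each class had a summit. A median summit rested on 12 fragments, so a member without a summit may have binding below the caller's threshold. Which gene a bound site regulates was not measured. No paired analysis was possible because the replicates were pooled in the deposited list.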
